A study of Arabidopsis thaliana with 9 samples.

Results

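Dwarf plants carrying an RNA interference transgene against PPD3, genotype PPD3-RNAi T+ in the labels, were compared with wild type (WT) in RNA sequencing libraries of Arabidopsis thaliana, Col-0 ecotype. All plants were grown on soil under a 12 h photoperiod and their aboveground tissue was taken at bolting. The comparison covers 6 of the 9 libraries of the series, 3 of dwarf plants and 3 of WT, which the labels call biological replicates. The other 3 are of PPD3-RNAi T+ plants whose phenotype is given as large, and they carry the same transgene label as the dwarf plants. The promoter that drives the transgene, the number of plants in a library and the number of transgenic lines were not given in the sources used here. The genes described are the 15057 of 19870 tested genes that lie outside 4 chromosome stretches, AT4G00020 to AT4G15910, AT3G01040 to AT3G04290, AT1G01010 to AT1G31000 and AT1G68370 to AT1G80980, in which whole neighbourhoods of genes were raised in some RNAi libraries. No threshold on the dwarf values chose these genes, and the stretches had been drawn from the same libraries. Each library held 34660392 to 35217754 counts assigned to genes.

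PPD3 belongs to the PsbP domain proteins of the chloroplast, a family related to the oxygen-evolving complex of photosystem II. RNA interference uses a hairpin transcript to bring about cleavage of the matching messenger RNA. In Arabidopsis shoots, low temperature and drought act on overlapping sets of genes: CBF/DREB1 factors bind a promoter element with the core CCGAC, abscisic acid acts through receptors of the PYR/PYL family and factors that bind ACGTG, and both lead to COR, RD and KIN proteins that protect membranes and proteins during dehydration. Pentatricopeptide repeat (PPR) proteins are encoded in the nucleus and bind RNA in plastids and mitochondria, where they edit, splice and stabilise transcripts.

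PPD3 (AT1G76450), the target of the transgene, was at 87.6, 128 and 96.5 CPM (read counts scaled to a common effective library size) in dwarf 1, 2 and 3, and at 115, 100.3 and 91.1 CPM in WT 1, 2 and 3. The groups overlapped and the log2 fold change was 0.03 (SE 0.17, 95% interval -0.36 to 0.42, edgeR adjusted p = 0.934), so no fall of the target was detectable and groups below are named after the labelled phenotype. PPD3 itself lies in the stretch at the end of chromosome 1, whose genes had a median ratio to the WT mean of 1.41 in dwarf 1, 1.46 in dwarf 2 and 0.962 in dwarf 3.

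The dwarf libraries did not carry the same raised stretches. The chromosome 4 stretch was raised in all 3 (median ratios 1.91, 1.47 and 1.44 in dwarf 1, 2 and 3), the chromosome 3 stretch in dwarf 1 (1.43) and the start of chromosome 1 in dwarf 3 (1.404), against 0.986 to 1.02 in WT for the 4 stretches. Outside the stretches, windows of 100 neighbouring genes had median log2 ratios of -0.22 to 0.09 in dwarf 1 and -0.11 to 0.07 in dwarf 2. In dwarf 3 the range was -0.16 to 0.39, and the raised run at the start of chromosome 1 went on past AT1G31000: windows of 20 genes from there to AT1G32210 lay at 0.47 to 0.58, the window ending at AT1G32530 at 0.27, and the next at -0.13. The 114 genes tested from AT1G31010 to AT1G32570 hold 6 that rose and 0 that fell by edgeR's test, AGO2, AGO3 and 4 PPR or TPR-like genes, which are marked below. The part of the raised stretches in the changes of genes outside them was not tested.

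Of the 15057 genes, 455 rose (3.02%) and 421 fell (2.8%) in dwarf against WT at an adjusted p under 0.05 by edgeR's quasi-likelihood test, 876 in all (5.82%). With at least a 2-fold change, 225 rose (1.49%) and 87 fell (0.578%). The median log2 fold change over the 15057 genes was -0.02, and 3328 had an unadjusted p under 0.05. The dwarf values lay wholly above those of WT for 11.4% of the genes and wholly below for 15.3%. Of the genes called, 445 that rose and 417 that fell code for protein.

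The number of calls rested on which libraries were in the fit. Without dwarf 3 it was 2647, without dwarf 1 it was 532, without dwarf 2 it was 428, and without WT 1, 2 or 3 it was 103, 115 or 369. Without large 1, which enters through the filter, the scaling and the shared estimate of spread, it was 456. With the dwarf and WT libraries alone it was 207. The dwarf libraries differed more among themselves than the WT libraries: on the first principal component of these genes (which held 37.2% of the variance) the scores were -64.9, -34.9 and 6.62 for dwarf 1, 2 and 3, and 14.7 to 26.7 for WT. The split of rising and falling calls also moved with the scaling, from 455 and 421 to 350 and 732 with upper-quartile factors, and to 373 and 220 with the stretches left out before normalization. Of 105 genes named by rule (the 10 largest rises, the 10 largest falls and up to 4 called members of each gene list), 89 lost their call without WT 1, 87 without WT 2, 66 without WT 3, 58 without dwarf 2, 48 without large 1, 47 without dwarf 1, 27 without large 3, 16 without large 2 and 1 without dwarf 3, and none changed sign in these 9 fits. The call was kept under every setting tried for 13 of them: COR15A, RD29A, COR15B, KIN2, COR413-PM1, XTH31, MAM3, PRXCA, PHO1, PYL4, PYL5, DEWAX and AGO2.

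**Figure D1:**
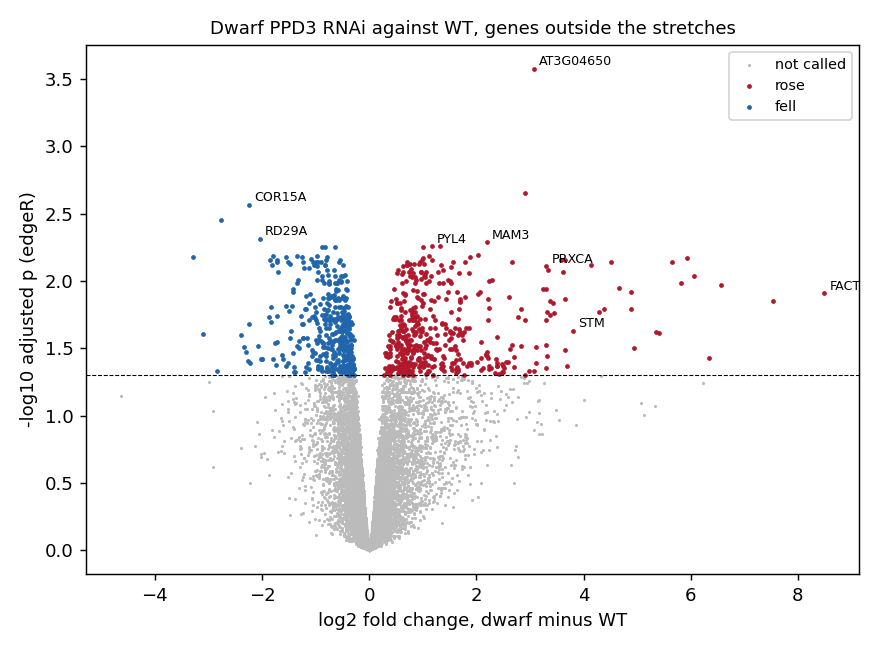
Log2 fold change (dwarf minus WT) against -log10 of the edgeR adjusted p for the 15057 genes outside the stretches, 1 point per gene; the dashed line is an adjusted p of 0.05. The 455 genes that rose reach further from 0 than the 421 that fell, and COR15A has the smallest adjusted p on the falling side.

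The rises were not even across the dwarf plants. Dwarf 1 had the highest value of the 3 dwarf libraries for 281 of the 455 genes that rose, and dwarf 3 the lowest for 266. The median log2 ratio of these 455 genes to the WT mean was 1.12 in dwarf 1, 0.91 in dwarf 2 and 0.79 in dwarf 3, and 0.55, 0.67 and 0.59 in large 1, 2 and 3. For the 421 genes that fell it was -0.73, -0.63 and -0.51 in dwarf, and -0.16, -0.26 and -0.19 in large. These medians describe genes that were chosen by the dwarf values, so the distance between dwarf and large in them is no test.

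**Figure D2:**
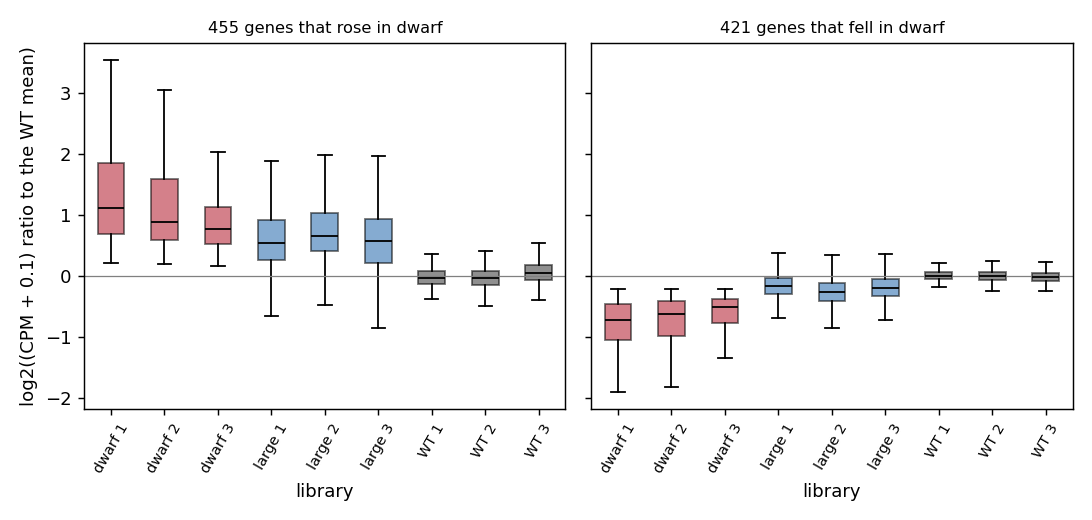
Log2 ratio of each library's CPM (plus 0.1) to the mean of the 3 WT libraries, for the 455 genes that rose and the 421 that fell in dwarf; boxes span the quartiles, the line is the median and whiskers reach 1.5 times the box. Dwarf 1 lies furthest from WT in both panels and the large libraries lie between dwarf and WT.

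Among well-measured genes with a symbol, the largest rise was that of PRXCA (AT3G49110, chromosome 3, 18200587 to 18203265 of TAIR10.1), a class III peroxidase of the cell wall that releases hydrogen peroxide in defence. It was at 203, 127 and 72.7 CPM in dwarf 1, 2 and 3, at 7.90, 15.9 and 17.1 CPM in WT 1, 2 and 3 and at 50.5, 80.6 and 121 CPM in large 1, 2 and 3. The lowest dwarf value was 4.24 times the highest WT value, and the group difference was large against its error (log2 fold change 3.2996, SE 0.48, adjusted p = 0.00778). Of its words of 50 bases, 7.23% occur elsewhere in the genome, so its count is uncertain to that extent. MAM3 (AT5G23020, chromosome 5, 7718118 to 7721866 of TAIR10.1), a methylthioalkylmalate synthase that makes long-chain aliphatic glucosinolates, was at 32.4, 42.7 and 39.0 CPM in dwarf against 9.08, 9.45 and 6.43 CPM in WT (log2 fold change 2.19, SE 0.23, adjusted p = 0.00515). Its dwarf values were alike and stood apart from the 9.61, 8.90 and 14.9 CPM of large as well as from WT.

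RLP20, a receptor-like protein, was at 44.3, 28.3 and 7.87 CPM in dwarf and 2.96, 3.25 and 4.50 CPM in WT (log2 fold change 2.91, SE 0.58, adjusted p = 0.0195). GLR2.8, a glutamate receptor-like channel, was at 24.5, 18.3 and 6.66 CPM against 2.899, 3.39 and 4.50 CPM (log2 fold change 2.198, SE 0.52, adjusted p = 0.0363). CML41, a calmodulin-like protein of plasmodesmata, was at 34.6, 19.0 and 5.80 CPM against 3.43, 4.68 and 3.27 CPM (log2 fold change 2.38, SE 0.60, adjusted p = 0.0428). In all 3 genes dwarf 1 was highest and dwarf 3 came nearest to WT. The same held for PTR3, a peptide transporter, at 72.3, 42.1 and 9.04 CPM against 8.34, 7.40 and 8.39 CPM (log2 fold change 2.35, SE 0.62, adjusted p = 0.048), and for CRK8, a cysteine-rich receptor-like kinase, at 21.4, 17.2 and 7.16 CPM against 3.85, 5.50 and 4.24 CPM. The call of PTR3 held in 1 of the 9 fits that left out a library, that of CML41 in 2, those of GLR2.8 and CRK8 in 3 and that of RLP20 in 6. CRK8 shares 16.5% of its 50-base words with other places in the genome.

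The remaining 3 of the 10 largest rises were more even. GLL22, a GDSL-type lipase-like protein, was at 11.4, 10.3 and 6.51 CPM against 1.09, 2.02 and 2.67 CPM (log2 fold change 2.28, SE 0.36, adjusted p = 0.00982). ACO1, which makes ethylene from ACC, was at 7.03, 13.3 and 7.96 CPM against 1.07, 1.61 and 3.98 CPM (log2 fold change 2.08, SE 0.46, adjusted p = 0.0284). DIR1, a lipid transfer protein of systemic resistance, was at 12.9, 13.3 and 9.44 CPM against 2.78, 3.31 and 4.98 CPM (log2 fold change 1.68, SE 0.26, adjusted p = 0.00872). The whole span of DIR1 is overlapped by another gene, and strand is not recorded by the library kit. How reads were counted was not given, so its count may hold reads of its neighbour. ACO1 and DIR1 were at 18.5, 13.9 and 10.9 and 23.58, 16.6 and 15.3 CPM in large, above the highest dwarf value in 5 of these 6 values.

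**Figure D3:**
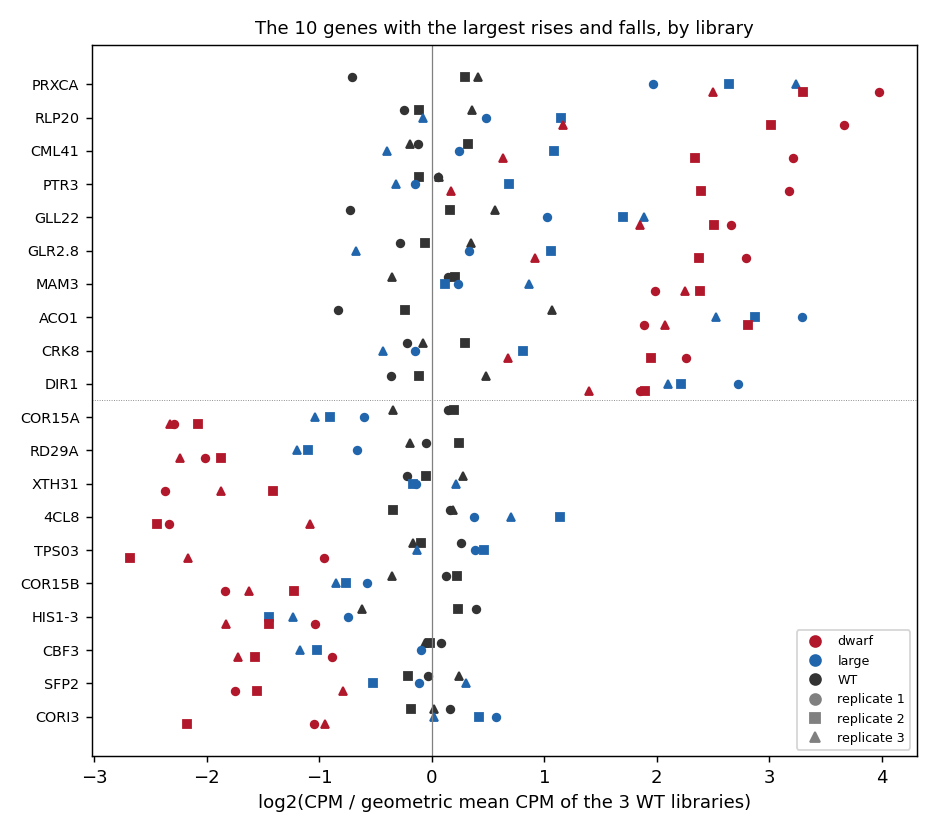
Log2 ratio of CPM to the geometric mean of the 3 WT libraries in every library, for the 10 genes with the largest rises (above the dotted line) and the 10 with the largest falls, by group (colour) and replicate (shape). Dwarf 3 lies near the WT libraries for PTR3, CML41, CRK8 and GLR2.8, while the 3 dwarf libraries lie together for COR15A, RD29A and MAM3.

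COR15A and RD29A, which answer to cold and drought, had the 2 deepest falls among the genes named by rule. Of the 25 members tested of a list of cold and dehydration genes, 9 fell (36.0%) and 1 rose, beside 2.8% and 3.02% of all genes, and the median log2 fold change of the list was -0.81, beside -0.02. Without WT 1 or without WT 2, 5 members fell, and 7 to 11 without any other library. COR15A (AT2G42540), a chloroplast protein that guards membranes during freezing, was at 175, 203 and 171 CPM in dwarf 1, 2 and 3, at 947, 982 and 675 CPM in WT 1, 2 and 3 and at 563, 456 and 416 CPM in large 1, 2 and 3. The fall (log2 fold change -2.25, SE 0.18, adjusted p = 0.00272) was called in every fit. The dwarf values lay below all others and those of large between dwarf and WT. RD29A (AT5G52310), the widely used reporter of drought, cold and salt, was at 274, 302 and 235 CPM in dwarf, 1073, 1309 and 970.1 CPM in WT and 701, 517 and 483 CPM in large (log2 fold change -2.05, SE 0.19, adjusted p = 0.00486), in the same order. In bulk tissue, fewer cells of a type and less RNA per cell cannot be told apart, here and below.

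COR15B, the tandem copy of COR15A, was at 79.8, 122 and 92.1 CPM in dwarf against 311, 333 and 223 CPM in WT (log2 fold change -1.56, SE 0.20, adjusted p = 0.00665), with 25.4% of its length overlapped by another gene. KIN2, a small hydrophilic cold protein, was at 289, 353 and 229.7 CPM against 739.7, 712 and 565 CPM (log2 fold change -1.21, SE 0.18, adjusted p = 0.00797). COR413-PM1, a membrane protein of cold acclimation, was at 272, 296 and 353 CPM against 573, 577 and 573 CPM (log2 fold change -0.90, SE 0.12, adjusted p = 0.00726). No dwarf value of these 3 genes reached the lowest WT value. P5CS1, which makes proline, was at 108, 96.2 and 179 CPM against 274, 322 and 201 CPM. RD22, a wall protein of drought, was at 290.0, 319 and 385 CPM against 509, 519 and 496 CPM (log2 fold changes -1.06 and -0.62, adjusted p = 0.0337 and 0.0193). HSFC1, a heat shock factor that lies almost wholly within an overlapping gene, fell too (-1.13), and the ninth that fell was CBF3.

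Of the CBF factors that act upstream, CBF3 fell, at 11.9, 7.39 and 6.63 CPM in dwarf against 23.2, 21.7 and 20.9 CPM in WT (log2 fold change -1.34, SE 0.31, adjusted p = 0.0305). Its call held in 5 of the 9 fits that left out a library, and no dwarf value reached the lowest of WT. CBF1 was at 0.439, 0.92 and 0.555 CPM against 0.976, 1.46 and 1.17 CPM (log2 fold change -0.91, SE 0.31, adjusted p = 0.101). CBF2 was at 2.64, 1.87 and 4.23 CPM against 5.15, 4.71 and 5.41 CPM (log2 fold change -0.81, SE 0.41, adjusted p = 0.248). Neither passed the test. ICE1, which acts before CBF3, was level (log2 fold change 0.05, 95% interval -0.21 to 0.31). DREB2A, the drought and heat relative of the CBFs, rose, from 11.7, 12.2 and 12.7 CPM in WT to 40.2, 25.5 and 18.0 CPM in dwarf (log2 fold change 1.19, SE 0.27, adjusted p = 0.029), with its highest value in dwarf 1. Members of the list that did not pass included LTI30 (29.8, 16.5 and 14.2 CPM against 40.1, 39.96 and 27.2 CPM, log2 fold change -0.82, SE 0.28, adjusted p = 0.105), KIN1 (-1.19) and ERD1 (0.08).

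The promoters of the 4 cold genes fixed for display are shown because these transcripts had the 4 deepest falls of the list among genes above 100 CPM in every WT library. They are the 250 bases before the annotated start of each gene, 5′ to 3′ on the gene's strand, from the RefSeq sequence of TAIR10.1, with matches to CCGAC (the core of the CBF element) and ACGTG (the core of the abscisic acid element) on either strand in capitals.
COR15A: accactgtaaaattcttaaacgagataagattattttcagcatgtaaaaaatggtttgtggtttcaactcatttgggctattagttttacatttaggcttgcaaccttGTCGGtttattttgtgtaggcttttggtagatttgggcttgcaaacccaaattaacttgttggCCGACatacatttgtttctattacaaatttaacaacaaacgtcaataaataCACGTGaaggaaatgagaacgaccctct
RD29A: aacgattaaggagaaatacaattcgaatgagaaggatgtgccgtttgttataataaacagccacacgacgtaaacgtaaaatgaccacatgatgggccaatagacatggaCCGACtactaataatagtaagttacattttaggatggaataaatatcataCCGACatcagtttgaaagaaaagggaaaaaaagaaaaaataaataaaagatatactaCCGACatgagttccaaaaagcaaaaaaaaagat
COR15B: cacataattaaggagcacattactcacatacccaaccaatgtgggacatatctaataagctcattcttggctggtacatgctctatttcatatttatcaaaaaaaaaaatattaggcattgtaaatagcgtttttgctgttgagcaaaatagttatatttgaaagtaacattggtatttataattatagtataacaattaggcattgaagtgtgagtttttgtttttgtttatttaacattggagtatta
KIN2: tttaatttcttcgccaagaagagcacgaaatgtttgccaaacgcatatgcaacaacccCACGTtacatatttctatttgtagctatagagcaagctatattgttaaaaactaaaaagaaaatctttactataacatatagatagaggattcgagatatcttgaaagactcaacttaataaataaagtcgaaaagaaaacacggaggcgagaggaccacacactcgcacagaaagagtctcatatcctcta
They lie at chr2:17712331-17712580 (minus strand), chr5:21240467-21240716 (plus strand), chr2:17710434-17710683 (minus strand) and chr5:5211469-5211718 (plus strand). In these windows of 250 bases, COR15A holds 2 matches to CCGAC and 2 to ACGTG, which overlap each other in the run CACGTG. RD29A holds 3 to CCGAC and 0 to ACGTG, KIN2 holds 0 and 1, and COR15B holds neither. Bases outside the windows were not searched, so a 0 does not speak for the whole promoter. CCGAC occurred in 3 of the 9 promoters of the list that fell and in 6 of the 15 that were not called, and over all genes in 15.8% of 417 promoters of genes that fell, 10.6% of 445 that rose and 12.8% of 14783 tested. ACGTG occurred in 27.3%, 19.1% and 23.0% of the same promoters. TTGAC, the core of the WRKY element, occurred in 40.3%, 49.2% and 44.9%, and AATATCT, the core of the evening element of the clock, in 12.7%, 7.87% and 10.2%. A match is a description of the letters and not a site.

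Among abscisic acid genes the calls went upward. Of 33 tested members of the list for its synthesis, perception and signalling, 4 rose (12.1%) and 0 fell by edgeR's test (6 fell at an unadjusted p under 0.05, and 5 with DESeq2), with a median of -0.19 (beside 3.02%, 2.8% and -0.02 for all genes). The 4 were 3 receptor genes and a catabolic enzyme. PYL4 was at 42.1, 53.5 and 53.1 CPM in dwarf, 21.8, 19.8 and 24.6 CPM in WT and 30.2, 24.7 and 28.7 CPM in large (log2 fold change 1.17, SE 0.13, adjusted p = 0.00553). PYL5 was at 7.47, 7.67 and 5.99 CPM against 3.28, 3.22 and 3.19 CPM (log2 fold change 1.12, SE 0.14, adjusted p = 0.00647), and PYL6 was at 4.06, 3.09 and 2.25 CPM against 1.12, 0.907 and 0.911 CPM (log2 fold change 1.68, SE 0.35, adjusted p = 0.0229). CYP707A2, which inactivates abscisic acid by hydroxylation, was at 20.6, 10.5 and 9.20 CPM against 3.55, 5.82 and 3.33 CPM (log2 fold change 1.66, SE 0.33, adjusted p = 0.0191). The dwarf and WT values of the 4 did not overlap. NCED3, the rate-limiting enzyme of synthesis under drought, was at 12.9, 6.89 and 3.46 CPM against 11.04, 8.89 and 10.1 CPM (log2 fold change -0.37, SE 0.41, adjusted p = 0.611), and the phosphatases ABI1 and ABI2 had log2 fold changes of -0.25 and -0.73 (adjusted p = 0.479 and 0.0953).

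Photosystem genes nearly all had negative log2 fold changes in dwarf, and nearly all missed the threshold. Of 31 tested genes of photosystems I and II and their antennae, 30 had a negative log2 fold change and 1 fell by edgeR's test (3.23%, beside 2.8% of all genes), while 20 were lower at an unadjusted p under 0.05 and 12 fell with DESeq2. The list medians were -0.64 for photosystem I (13 genes) and -0.60 for photosystem II (18 genes). The median log2 ratio of the 31 genes to the WT mean was -1.12 in dwarf 1, -0.63 in dwarf 2, -0.19 in dwarf 3, and -0.27, -0.61 and -0.23 in large 1, 2 and 3. PSAH-1, a subunit of photosystem I and the gene that fell, was at 330.0, 447 and 493 CPM in dwarf against 764, 725 and 675 CPM in WT (log2 fold change -0.77, SE 0.17, adjusted p = 0.029), with 49.0% of its length overlapped by another gene. LHCB3, an antenna protein of photosystem II, was at 1503, 2170.1 and 3809.9 CPM against 4984, 4521 and 4316 CPM (log2 fold change -0.89, SE 0.32, adjusted p = 0.116). PSBO1 of the oxygen-evolving complex was at 2153, 3201 and 4443 CPM against 5457, 5302 and 4765 CPM (log2 fold change -0.66, SE 0.26, adjusted p = 0.15). In both, dwarf 1 was lowest and dwarf 3 came nearest to WT. PSAF (AT1G31330), which lies in the run raised in dwarf 3 past the stretch border, was at 965, 1708 and 3413 CPM in dwarf against 2688, 2433 and 2428 CPM in WT.

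Around the photosystems, 0 of 32 chlorophyll and carotenoid genes were called by edgeR or DESeq2 (1 at an unadjusted p under 0.05), and 25 of them were negative. Of 29 genes of the Calvin cycle and photorespiration 1 fell (3.45%, near the 2.8% of all genes), TKL2 (-0.42, adjusted p = 0.0309), and 25 were negative. GLK1, a factor that drives genes of chloroplast development, fell from 307, 332 and 266 CPM in WT to 208, 213 and 212 CPM in dwarf (log2 fold change -0.51, SE 0.11, adjusted p = 0.0255), and its level in large was 239, 208 and 247 CPM. ELIP1, a light stress protein of thylakoids, rose, from 2.31, 2.63 and 2.106 to 4.56, 4.85 and 4.32 CPM (log2 fold change 0.96, SE 0.17, adjusted p = 0.0139). Of 10 guard cell markers 0 were called by edgeR (1 higher and 2 lower at an unadjusted p under 0.05, and 1 lower with DESeq2), and 4 were positive (median log2 fold change -0.10). Their summed level was 1928 to 2750 CPM in dwarf and 3639 to 4339 CPM in WT, most of it TGG1 (log2 fold change -0.79, SE 0.22, adjusted p = 0.058), and without TGG1 it was 56.5 to 59.7 CPM in dwarf and 64.9 to 70.3 CPM in WT. Their part in these results was not tested.

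Class III peroxidases were picked out by product name after the values were seen, so the group is given without a test. Of 30 tested, 8 rose (26.7%, beside 3.02% of all genes) and 0 fell by edgeR (2 at an unadjusted p under 0.05, and 2 with DESeq2), with a median log2 fold change of 0.58. Without WT 1 or WT 2 the calls fell to 2 or 3, and in the other fits that left out a library they were 7 to 11. Beside PRXCA, AT5G58390 was at 26.4, 21.7 and 24.8 CPM in dwarf against 7.04, 8.48 and 9.11 CPM in WT (log2 fold change 1.56, SE 0.21, adjusted p = 0.00726). AT4G36430 was at 5.27, 3.62 and 3.02 CPM against 0.296, 0.38 and 0.285 CPM and AT2G38380 at 6.15, 4.68 and 3.86 CPM against 0.207, 0.322 and 0.939 CPM (log2 fold changes 3.62 and 3.31). Their large values, 0.768, 3.504 and 1.64 and 1.93, 4.46 and 5.17 CPM, all lay above the highest WT value.

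Several genes of suberin, the waxy polyester of barrier walls in root, stem periderm and wounds, were close to absent in WT and present in dwarf. They too were listed after values were seen. Of 10 tested, 4 rose, beside 3.02% of all genes, and 0 fell by edgeR's test (1 at an unadjusted p under 0.05, and 1 with DESeq2). The dwarf values lay wholly above those of WT for 6 of the 10 (beside 11.4% of all genes) and wholly below for 2 (beside 15.3%). The lowest log2 fold change was -0.80. CYP86A1, a fatty acid hydroxylase, was at 1.48, 0.92 and 1.54 CPM in dwarf and 0.0296, 0 and 0.114 CPM in WT (log2 fold change 4.66, SE 0.77, adjusted p = 0.0113). FACT, which joins fatty alcohols to coumarate or caffeate, had 136 counts over the 3 dwarf libraries (1.87, 1.17 and 0.802 CPM) and 0 in WT, at least 44.6-fold higher against a floor of 3 counts over the WT group (adjusted p = 0.0124). ABCG20, a transporter of suberin monomers, had 30 counts in dwarf and 0 in WT, at least 9.85-fold higher by the same floor (adjusted p = 0.0371). ASFT, a feruloyl transferase, was at 1.73, 1.87 and 2.72 CPM against 0.74, 1.02 and 0.967 CPM (log2 fold change 1.203, SE 0.29, adjusted p = 0.0383). GPAT5 and FAR4 had adjusted p of 0.574 and 0.055, and KCS20, a fatty acid elongase, had a log2 fold change of 0.07. The large libraries held 0.228, 0.931 and 0.643 CPM of CYP86A1 and 0.142, 0.684 and 0.731 CPM of FACT.

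Root markers were read beside these genes. Of 14 root markers outside the stretches 3 passed the filter on low counts, SCR, SHR and IRT1, and RHD6, EXPA18, PLT1 and PLT2 had 0 counts in all 9 libraries. The summed level of the 14 was 40.01 to 44.3 CPM in dwarf and 35.1 to 37.3 CPM in WT. Most of it was SCR (25.3 to 28.9 CPM in dwarf and 24.8 to 26.9 CPM in WT) and SHR (8.45 to 11.6 and 9.93 to 10.4 CPM). In dwarf 1 the sum also held 9.44 CPM of IRT1. MYB36, a factor of the root endodermis, had 4, 4 and 6 counts in dwarf and 0 in each WT library, and IRT1, the iron transporter of the root epidermis, had 344 counts in dwarf 1, 17 in dwarf 2, 8 in dwarf 3 and 2 to 6 in WT. The part of root tissue in the peroxidase and suberin results was not tested.

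Few defence genes were called. In the salicylic acid list, 31 of 35 tested genes were positive (median 0.33) and 2 rose. They were WRKY60 (29.2, 22.4 and 18.0 CPM in dwarf against 13.2, 13.5 and 12.9 CPM in WT, log2 fold change 0.81, SE 0.17, adjusted p = 0.0236) and UGT76D1, which adds glucose to dihydroxybenzoic acids and lay under 2 CPM in all libraries. In the list of pattern-triggered immunity, 35 of 45 were positive and 2 rose. WRKY17 was 1 of them (0.83, adjusted p = 0.0303). The other was RBOHF, an NADPH oxidase of the oxidative burst, at 53.4, 28.6 and 20.8 CPM against 15.8, 14.1 and 14.7 CPM (log2 fold change 1.21, SE 0.29, adjusted p = 0.0383). Dwarf 1 had the highest value for these 4 genes. The shares that rose by edgeR, 5.71% and 4.44%, lie near the 3.02% of all genes, of which 7197 of 15057 were positive. At an unadjusted p under 0.05, 8 salicylic acid genes and 10 of pattern-triggered immunity were higher and 0 lower. Over the 15057 genes 1589 were higher and 1739 lower. With DESeq2, 3 and 7 of the 2 lists rose and 0 fell, while 792 rose and 1025 fell of the 15057 genes that edgeR tested.

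Among receptor families chosen after their values were seen, 4 of 24 cysteine-rich receptor-like kinases rose (16.7%, beside 3.02% of all genes): CRK18, CRK22, CRK23 and CRK8. CRK23 was at 44.0, 40.03 and 18.3 CPM in dwarf against 9.64, 13.7 and 12.3 CPM in WT, with dwarf 3 near the WT values. CRK22, 16.2% of whose 50-base words occur elsewhere, was at 44.9, 36.7 and 40.4 CPM in dwarf, 30.7, 28.2 and 27.3 CPM in WT and 21.7, 21.9 and 17.802 CPM in large. Of 12 glutamate receptor-like genes 3 rose (25.0%), GLR2.8, GLR2.7 (177, 125 and 66.8 CPM against 41.3, 49.4 and 47.2 CPM, log2 fold change 1.42, SE 0.32, adjusted p = 0.0298) and GLR1.4 (log2 fold change 1.24, SE 0.28, adjusted p = 0.0291). GLUR2 fell (log2 fold change -0.64, SE 0.11, adjusted p = 0.0139), 1 of 12 (8.33%) beside 2.8% of all genes. Of 62 TIR-NBS-LRR genes, a class of intracellular immune receptors, 6 rose (9.68%, beside 3.02%) and 0 fell by edgeR (4 at an unadjusted p under 0.05, and 2 with DESeq2). WRR4 was among the 6 (log2 fold change 0.64, adjusted p = 0.0499). AT5G46450 of this class was even, at 52.3, 49.3 and 49.1 CPM against 35.7, 36.8 and 32.9 CPM (log2 fold change 0.52, SE 0.08, adjusted p = 0.00873). RLP21, the neighbour of RLP20, was at 13.9, 8.08 and 1.57 CPM against 0.828, 0.702 and 0.854 CPM (log2 fold change 3.304, SE 0.65, adjusted p = 0.0194).

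Of 44 jasmonate genes tested, 4 fell (9.09%, beside 2.8% of all genes) and 1 rose (2.27%, beside 3.02%). The log2 fold change was negative for 31 of them, beside 7860 of all 15057 genes. CORI3, a cystine lyase induced by coronatine, was at 343, 157 and 367 CPM in dwarf against 793, 625 and 719 CPM in WT (log2 fold change -1.301, SE 0.30, adjusted p = 0.0316). JAZ3, a repressor of jasmonate signalling, was at 14.1, 13.8 and 18.1 CPM in dwarf, 26.4, 20.9 and 24.3 CPM in WT and 31.2, 32.4 and 29.8 CPM in large (log2 fold change -0.64, SE 0.13, adjusted p = 0.02). TGG2, a myrosinase that breaks down glucosinolates, was at 1779, 1155 and 1931 CPM against 3311, 2897 and 3441 CPM (log2 fold change -0.99, SE 0.24, adjusted p = 0.0387). The dwarf values of these 3 lay below all WT values. The gene that rose was PBP1, a lectin that binds a beta-glucosidase, at 84.5, 60.8 and 62.2 CPM against 23.9, 15.1 and 38.3 CPM (log2 fold change 1.42, SE 0.29, adjusted p = 0.0224). TPS03, a terpene synthase, was among the 10 largest falls, at 23.2, 6.997 and 9.997 CPM against 54.1, 42.0 and 40.2 CPM (log2 fold change -1.76, SE 0.39, adjusted p = 0.029), with its lowest value in dwarf 2. SFP2, a sugar transporter-like gene of the same 10, was at 2.196, 2.51 and 4.26 CPM in dwarf against 7.22, 6.35 and 8.74 CPM in WT (log2 fold change -1.32, SE 0.29, adjusted p = 0.0279).

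Of nutrient genes, 4 of 22 phosphate genes rose (beside 3.02% of all genes) and 0 fell by edgeR's test (4 at an unadjusted p under 0.05, and 1 with DESeq2), with a median of 0.17. PHO1, which loads phosphate into the xylem, was at 11.5, 13.9 and 10.2 CPM in dwarf, 5.68, 6.09 and 6.32 CPM in WT and 12.0, 13.0 and 11.6 CPM in large (log2 fold change 0.98, SE 0.13, adjusted p = 0.00696), and both RNAi groups lay above WT without overlap. PHT1;4, a phosphate importer, was at 10.98, 8.92 and 7.10 CPM in dwarf, 2.66, 3.07 and 3.13 CPM in WT and 1.85, 3.80 and 1.43 CPM in large (log2 fold change 1.61, SE 0.33, adjusted p = 0.0222). The large values lay around those of WT. SPX1, an inhibitor of the phosphate response factor PHR1, and PAP10, a secreted phosphatase, rose less (0.72 and 0.41, adjusted p = 0.0313 and 0.0445). SQD1, MGD1 and PAP17, of lipid exchange and phosphate scavenging, had adjusted p of 0.307, 0.165 and 0.399.

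Of 33 iron and zinc genes 3 rose (9.09%, beside 3.02% of all genes): YSL3 and YSL1, carriers of metal-nicotianamine complexes, and the copper importer COPT2. YSL3 was at 113, 85.4 and 52.6 CPM in dwarf, 34.9, 38.9 and 33.7 CPM in WT and 31.3, 42.4 and 35.9 CPM in large (log2 fold change 1.23, SE 0.24, adjusted p = 0.0196). YSL1 was at 18.5, 12.5 and 8.64 CPM against 3.99, 6.20 and 3.78 CPM (log2 fold change 1.502, SE 0.35, adjusted p = 0.0319). In both, dwarf 1 was highest. Of 34 nitrogen genes 2 rose (5.88%, beside 3.02% of all genes) and 1 fell (2.94%, near 2.8%). NRT3.1, a partner of nitrate importers, rose with the same order (94.6, 59.99 and 23.54 CPM against 18.22, 18.1 and 20.4 CPM, log2 fold change 1.65, SE 0.43, adjusted p = 0.0465). LBD37, a repressor of nitrogen genes, rose by 0.52 on the log2 scale (adjusted p = 0.0266). BT1 fell (23.4, 16.8 and 24.7 CPM against 47.4, 34.1 and 41.9 CPM, log2 fold change -0.93, SE 0.17, adjusted p = 0.0148). Of 23 sulfur genes 1 rose (4.35%, near the 3.02% of all genes). It was LSU1, at 2.14, 2.82 and 1.67 CPM against 0.769, 0.673 and 0.484 CPM (log2 fold change 1.78, SE 0.31, adjusted p = 0.0133), and its large values were 2.93, 5.31 and 4.06 CPM.

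Few genes of growth and walls were called. Of 16 expansins, wall-loosening proteins, 3 fell (18.8%, beside 2.8% of all genes) and 1 rose (6.25%, beside 3.02%). EXPA8 was at 26.8, 43.5 and 53.4 CPM in dwarf against 76.9, 81.9 and 81.2 CPM in WT (log2 fold change -0.96, SE 0.23, adjusted p = 0.0384). The others were EXPA3 (-0.68, adjusted p = 0.0428) and EXPB1 (-1.07, adjusted p = 0.0186). EXLB1, an expansin-like gene, rose (log2 fold change 1.42, SE 0.29, adjusted p = 0.0209). XTH31, which cuts and rejoins xyloglucan, was at 4.94, 9.59 and 6.94 CPM in dwarf, 21.95, 24.5 and 30.8 CPM in WT and 23.2, 22.7 and 29.6 CPM in large (log2 fold change -1.85, SE 0.24, adjusted p = 0.00696). Its dwarf values stood apart from those of large and WT, which overlapped. It was the only 1 of 19 genes of its family that passed the test (5.26% fell, near the 2.8% of all genes).

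Of 55 genes of primary wall synthesis, 42 were negative and 3 fell (5.45%, near the 2.8% of all genes). They were UXS3, RHM2 and UGD2, all of which make nucleotide sugars, with log2 fold changes of -0.52, -0.41 and -0.32 (adjusted p = 0.00992, 0.0303 and 0.0373). RHM2 is overlapped by another gene over 51.5% of its length. Of 40 genes of secondary wall and xylem, XCP1, a protease of xylem vessels, fell (13.1, 15.3 and 17.9 CPM against 26.1, 27.4 and 24.7 CPM, log2 fold change -0.76, SE 0.12, adjusted p = 0.00992), as did LAC11 and ELI3-1 (3 in all, 7.5%). PAL3 of phenylpropanoid entry rose (27.3, 29.4 and 36.2 CPM against 15.2, 17.2 and 15.1 CPM, log2 fold change 0.97, SE 0.15, adjusted p = 0.0085). The secondary wall cellulose synthases IRX1, IRX3 and CESA4 did not pass (adjusted p = 0.405, 0.401 and 0.345), with dwarf 3 above WT and dwarf 1 and 2 below for IRX1 and IRX3. The summed level of the 10 stem and vascular markers was 257 to 293 CPM in dwarf and 255 to 304 CPM in WT. The largest part was PP2-A1 (132 to 175 CPM in dwarf and 116 to 159 CPM in WT), so the sum says little of the others. Of these markers 7 were negative and 3 positive (median log2 fold change -0.29), and 2 were lower with DESeq2. The dwarf values lay wholly below WT for 2 of the 10 (near the 15.3% of all genes) and wholly above for 0 (beside 11.4%). The 2 were XCP1 and IRX12 (8.34, 8.11 and 12.99 CPM against 14.8, 14.9 and 14.3 CPM).

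Hormone and light genes gave single calls. RGL1, a DELLA repressor of gibberellin response, fell (log2 fold change -0.77, SE 0.18, adjusted p = 0.0316), as did CPD of brassinosteroid synthesis (log2 fold change -0.58, SE 0.13, adjusted p = 0.0321). CYP90D1 of the same pathway rose (log2 fold change 0.64, SE 0.15, adjusted p = 0.0349). IAA7, an auxin repressor, fell (log2 fold change -0.66, SE 0.15, adjusted p = 0.0335). AFB2, an auxin receptor, rose (log2 fold change 0.31, SE 0.07, adjusted p = 0.0341). Of 62 clock and light genes 3 fell (4.84%, near the 2.8% of all genes). PIF4 was at 147, 139.9 and 147 CPM against 188, 199.6 and 186 CPM (log2 fold change -0.40, SE 0.10, adjusted p = 0.0386). PAR1 (-0.92) and PIL2 (-1.14) fell too, the last wholly overlapped by another gene. Of 38 flowering genes 3 fell (7.89%). AGL42, a MADS factor, was at 0.824, 2.45 and 1.203 CPM against 5.59, 5.06 and 5.80 CPM (log2 fold change -1.87, SE 0.36, adjusted p = 0.0186). The others were the floral repressors TOE3 (log2 fold change -0.61, SE 0.10, adjusted p = 0.0114) and SNZ (log2 fold change -0.73, SE 0.16, adjusted p = 0.028). CKX6 rose, with 93.9% of its length overlapped, and CKX7 fell, both cytokinin oxidases (0.80 and -0.38).

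**Figure D4:**
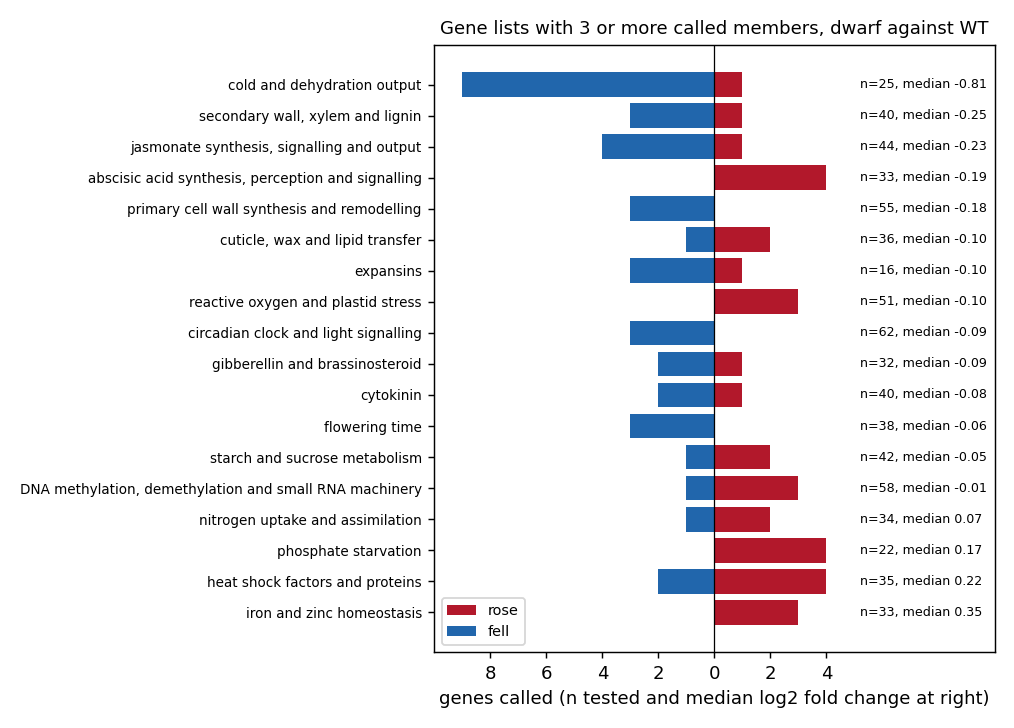
Number of genes that fell (left of 0) and rose (right of 0) in dwarf against WT for each list with 3 or more called members, with the number tested and the median log2 fold change at the right. The cold and dehydration list has the most falls, 9 of 25, and the lowest median, -0.81.

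Stress and chromatin genes changed in small numbers. Of 35 heat shock genes 4 rose (11.4%, beside 3.02% of all genes) and 2 fell (5.71%, beside 2.8%), HSFC1 among them. HSP70 (46.9, 19.0 and 29.6 CPM in dwarf against 10.1, 10.4 and 12.6 CPM in WT, log2 fold change 1.53, SE 0.33, adjusted p = 0.0267), HSFA7A (1.44), MBF1C (0.85) and DREB2A rose. OXS3, a nuclear protein of oxidative stress tolerance, was at 8.78, 10.04 and 6.76 CPM in dwarf, 2.99, 3.69 and 2.25 CPM in WT and 11.5, 16.8 and 18.6 CPM in large (log2 fold change 1.52, SE 0.25, adjusted p = 0.0103). Of 15 low oxygen genes 2 rose (13.3%). They were the haemoglobin HB1 (log2 fold change 0.92, SE 0.22, adjusted p = 0.0373) and the sucrose synthase SUS4 (log2 fold change 0.91, SE 0.22, adjusted p = 0.0383). SWEET11, which exports sucrose from the phloem parenchyma, rose from 82.6, 67.8 and 56.5 CPM to 151, 117 and 117 CPM (log2 fold change 0.90, SE 0.16, adjusted p = 0.0132). DEWAX, a repressor of wax synthesis, was at 130.1, 130.2 and 116 CPM in dwarf, 86.0, 80.4 and 76.1 CPM in WT and 143, 127 and 143 CPM in large (log2 fold change 0.64, SE 0.09, adjusted p = 0.00771), above WT in all 6 RNAi libraries.

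Of 58 genes of DNA methylation, demethylation and small RNAs, 3 rose (5.17%, near the 3.02% of all genes) and 1 fell (1.72%, beside 2.8%), and the median was -0.01. AGO2, a slicer of antiviral and DNA repair small RNAs, was at 55.9, 48.1 and 51.3 CPM in dwarf, 30.4, 33.3 and 32.0 CPM in WT and 39.99, 45.6 and 36.9 CPM in large (log2 fold change 0.70, SE 0.10, adjusted p = 0.0076). Its tandem neighbour AGO3 was at 2.14, 2.007 and 1.23 CPM against 0.414, 0.38 and 0.341 CPM (log2 fold change 2.24, SE 0.36, adjusted p = 0.0101). Both lie in the run that was raised in dwarf 3 past the stretch border, and both were also high in dwarf 1 and dwarf 2, where the windows up to AT1G32530 lay at -0.39 to 0.005. NRPD1A, the largest subunit of RNA polymerase IV, rose by 0.56 on the log2 scale (11.5, 11.4 and 9.20 CPM against 6.92, 7.66 and 7.11 CPM, adjusted p = 0.0254). ROS1, a demethylase that removes methylcytosine, fell from 84.3, 68.6 and 79.0 CPM to 54.1, 48.2 and 36.7 CPM (log2 fold change -0.74, SE 0.15, adjusted p = 0.0209), with its lowest value in dwarf 3. HIS1-3, a drought-induced linker histone, was at 8.95, 6.75 and 5.18 CPM against 24.1, 21.6 and 11.9 CPM (log2 fold change -1.46, SE 0.31, adjusted p = 0.0233). Genes of flavonoid synthesis (23), glutathione transferases (22), senescence (46) and cytosolic ribosomal proteins (20) gave 0 calls by edgeR's test, with 3, 2, 5 and 0 genes at an unadjusted p under 0.05 and 0, 0, 2 and 0 calls with DESeq2.

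The group of PPR genes was picked by product name after values were seen, and it joins 197 tested genes named pentatricopeptide repeat or mitochondrial editing factor with 188 named tetratricopeptide-like, a name under which the annotation also lists PPR genes. Of the 385, 77 rose (20.0%, beside 3.02% of all genes) and 0 fell by edgeR's test or with DESeq2 (3 at an unadjusted p under 0.05), 305 were positive and the median log2 fold change was 0.24, beside -0.02. The other 308 did not pass. Of the 77, 4 lie in the run raised in dwarf 3 past the stretch border. The call count ranged from 9 to 98 when 1 library was left out, the lowest without WT 1 (9) and WT 2 (10), and was 33 without WT 3, 40 to 50 without large 1, large 3, dwarf 1 or dwarf 2, and 12 with the dwarf and WT libraries alone. Dwarf 3 was not the lowest for these genes: the median log2 ratio of the 77 to the WT mean was 0.80, 0.62 and 0.72 in dwarf 1, 2 and 3, and 0.66, 0.65 and 0.59 in large.

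MEF22, an editing factor of mitochondrial transcripts with 81.0% of its length overlapped by another gene, was at 8.62, 8.45 and 7.498 CPM in dwarf, 3.14, 4.07 and 4.64 CPM in WT and 7.22, 7.23 and 6.20 CPM in large (log2 fold change 1.05, SE 0.16, adjusted p = 0.0085). MEF18 was at 10.6, 8.42 and 8.49 CPM against 4.82, 5.68 and 5.24 CPM (log2 fold change 0.81, SE 0.13, adjusted p = 0.00929). RARE1, a plastid editing factor, was at 15.5, 13.1 and 15.1 CPM against 8.79, 9.30 and 10.7 CPM (log2 fold change 0.60, SE 0.11, adjusted p = 0.0159). AT3G11460 was at 6.56, 6.24 and 7.34 CPM against 3.31, 3.39 and 3.39 CPM (log2 fold change 0.996, SE 0.13, adjusted p = 0.00677), and AT4G39952 was at 5.90, 5.80 and 6.14 CPM against 2.84, 3.07 and 3.39 CPM (log2 fold change 0.94, SE 0.13, adjusted p = 0.00726). For each of these 5 the dwarf values lay above all WT values and the large values lay above all WT values too. Gene structure moved with this result. Of the 191 PPR and TPR-like genes with 1 exon, 55 rose (28.8%), against 22 of 194 (11.3%) with more exons. Of 1814 other protein-coding genes with 1 exon, 73 rose (4.02%) and 48 fell (2.65%), and of 12779 with more exons, PPR and TPR-like genes included, 317 rose (2.48%). The part of gene structure in the result was not tested, nor was that of the shoot apex, whose markers are given next.

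**Figure D5:**
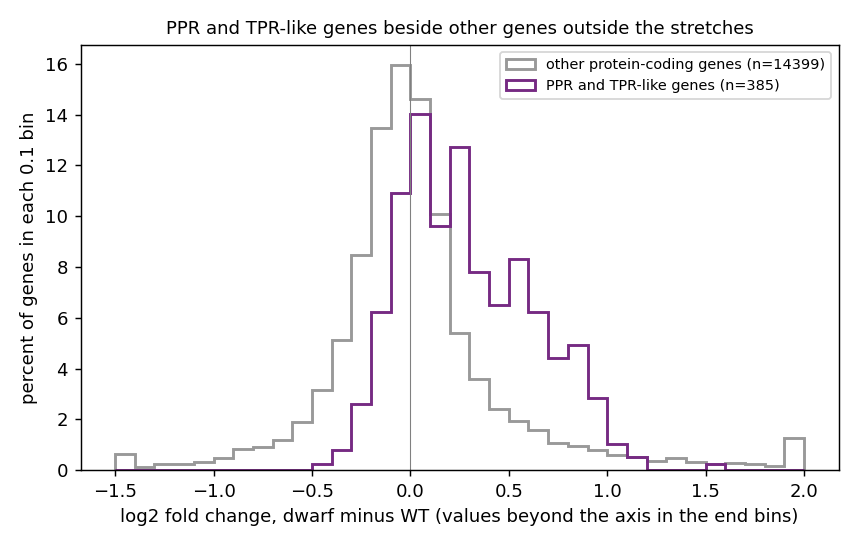
Distribution of the log2 fold change (dwarf minus WT) in bins of 0.1, as a percentage of the genes in each class, for 385 PPR and TPR-like genes and the other protein-coding genes outside the stretches. The PPR and TPR-like genes are shifted to the right, with a median of 0.24, and few lie below -0.3.

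Of the tested markers of the shoot meristem and young primordia, 5 were positive and 1 was negative (median log2 fold change 0.92). The summed level of the 10 markers outside the stretches was 24.9 to 30.8 CPM in dwarf, 12.5 to 18.5 CPM in WT and 34.6 to 38.6 CPM in large. Of the 6 that passed the filter 3 rose (beside 3.02% of all genes), and WUS and CLV3 had 0 counts in all 9 libraries. STM, the homeobox factor that keeps meristem cells undifferentiated, had 165, 196 and 97 counts in dwarf 1, 2 and 3, 1, 1 and 30 counts in WT 1, 2 and 3 and 288, 204 and 232 counts in large (log2 fold change 3.80, SE 0.79, adjusted p = 0.0233). WT 3 thus stood apart from WT 1 and 2. AIL5 and AIL6, factors of young organs, were at 4.69, 3.48 and 5.37 and 3.35, 2.54 and 3.09 CPM in dwarf against 2.28, 1.84 and 2.703 and 1.54, 1.49 and 1.91 CPM in WT (log2 fold changes 0.99 and 0.86, adjusted p = 0.0224 and 0.0216). ANT was at 11.6, 14.3 and 18.5 CPM against 8.85, 8.25 and 12.1 CPM (log2 fold change 0.60, SE 0.19, adjusted p = 0.0845). TFL1, which keeps the inflorescence meristem from turning into a flower, was lower in dwarf without overlap, at 0.165, 0.307 and 0.278 CPM against 0.355, 0.702 and 0.484 CPM in WT and 1.42, 1.07 and 0.497 CPM in large (log2 fold change -1.03, SE 0.49, adjusted p = 0.218), and did not pass. In a separate list of 73 cell cycle and DNA replication genes, 1 rose and 1 fell by edgeR (1.37% each, beside 3.02% and 2.8% of all genes). Of the 73, 49 were positive, with a median of 0.16. At an unadjusted p under 0.05, 18 were higher and 4 lower, beside 1589 and 1739 of all 15057 genes, and with DESeq2 3 rose and 4 fell. In large against WT 11 of the 73 rose and 0 fell by edgeR, beside 336 and 54 of all genes. The gene that rose in dwarf by edgeR was CYCB1;1, a mitotic cyclin, at 3.49, 3.62 and 3.67 CPM against 2.1005, 1.99 and 2.65 CPM (log2 fold change 0.68, SE 0.17, adjusted p = 0.0397).

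The shares of floral, pollen and hair tissue were read from the other marker lists. The summed level of the 11 floral organ markers was 11.4 to 13.8 CPM in dwarf and 11.5 to 13.0 CPM in WT, with A7 at 0 in all libraries. Of the 6 that passed the filter, 3 were positive and 3 negative. By edgeR 1 rose (16.7%, beside 3.02% of all genes), SPT (log2 fold change 0.84, SE 0.17, adjusted p = 0.0196). By the same test 0 fell (1 at an unadjusted p under 0.05, and 1 with DESeq2). AG was lower, with 8, 11 and 11 counts in dwarf 1, 2 and 3 and 27, 24 and 29 in WT 1, 2 and 3. The 4 pollen markers summed to 0.463 to 1.35 CPM in dwarf and 0.731 to 0.887 CPM in WT. The 4 trichome markers summed to 4.57 to 6.02 CPM in dwarf, to 3.98 and 4.35 CPM in WT 2 and WT 1, and to 9.02 CPM in WT 3. What part the mix of organs in the harvested shoots had in the results was not tested.

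Against the large plants, dwarf plants differed at 76 of the 15057 genes (0.505%) by the same test, 23 higher (0.153%) and 53 lower (0.352%), and large against WT gave 390 calls (2.59%). Both comparisons with WT share its 3 libraries, so only the direct test between dwarf and large is read as a difference between them. COR15A was -1.39 (95% interval -1.79 to -0.99, adjusted p = 0.0278) and RD29A -1.07 (adjusted p = 0.045) in dwarf minus large. Large minus WT was -0.86 and -0.98. XTH31 (-1.81), MAM3 (1.77), BT1 (-1.398) and 4CL8, an acyl-activating enzyme (-2.59), were called too. In large, XTH31 and MAM3 overlapped WT, and BT1 and 4CL8 lay above it (4CL8 was at 1.87, 1.73 and 4.44 CPM in dwarf, 10.5, 7.40 and 10.7 CPM in WT and 12.2, 20.8 and 15.4 CPM in large). PRXCA, PHO1, DEWAX and STM were not called between dwarf and large, with intervals of -0.31 to 1.66, -0.32 to 0.24, -0.34 to 0.07 and -2.09 to 0.77. The calls between dwarf and large fell to 0 without dwarf 2, without large 1 and without WT 1 (edgeR; 2005, 1868 and 2347 genes at an unadjusted p under 0.05, and 1105 calls by DESeq2 with all libraries). They came to 74 without dwarf 1, 2130 without dwarf 3 and 4 to 7 without large 2, large 3, WT 2 or WT 3.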

How the data were processed

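RNA of 9 libraries was sequenced as paired reads of 100 bases. Per the labels' protocols, libraries followed the TruSeq RNA v2 guide, which does not mark strand. Reads were trimmed with Trim Galore 0.4.1 and aligned with STAR 2.7.0a to TAIR10, per the submitters' processing notes. How reads were counted, and with which annotation and strandedness, was not given in the sources used here. The authors deposited raw read counts per gene, 33977 genes a library. The 5 rows that name no gene were left out; of all counted reads, those ambiguous between genes were 0.228% to 0.309% and those outside genes 0.642% to 0.900%.

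Libraries held 34660392 to 35217754 gene counts, and at this depth the spread between libraries limits precision more than counting error. From the counts, edgeR 4.0.16 (R 4.3.3) filtered low genes (filterByExpr), scaled by TMM and fitted all 9 libraries by quasi-likelihood, with Benjamini-Hochberg adjustment over 19870 genes and a threshold of 0.05. A standard error is the log2 fold change over the root of F. CPM use TMM library sizes. Named genes were the 10 largest rises and falls among called genes with a symbol, a mean of at least 5 CPM and no overlap of groups, and up to 4 called members of each list by smallest p. The members and lists were chosen with earlier results of these data known, and 11 further families were chosen after values were seen. Alternatives used DESeq2 1.42.0, limma 3.58.1 and other scalings, filters, library sets and a replicate block.

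Gene symbols, exons and promoters came from RefSeq's TAIR10.1 annotation, in which 32548 IDs matched. Words of 50 bases of 226 genes were searched in the genome: 204 had none elsewhere and 8 had over 5%. The fits were tested on simulated data.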

Additional observations from a re-analysis of the deposited data

Results flagged for a closer look

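For 16 of the genes described by name, out of the 76 called outside the stretches, the direct test between dwarf and large plants passed an adjusted p of 0.05 (edgeR), which marks them as differing between the RNAi groups under the same transgene label. Groups of 3 libraries are too small for a search for single libraries that stand apart, so none was made. The genes lower in dwarf than in large were COR15A (log2 difference -1.39), RD29A (-1.07), RCI2A (-0.77), XTH31 (-1.81), 4CL8 (-2.59), AGL42 (-2.36), BT1 (-1.40), JAZ3 (-1.02), CIPK25 (-2.45), AT5G54585 (-2.45) and the remorin AT5G23750 (-0.80). Those higher in dwarf were MAM3 (1.77), PHT1;4 (1.93), CRK22 (0.99), COPT2 (0.92) and PYL4 (0.83). COPT2, which imports copper, was at 5.57, 5.44 and 4.97 CPM in dwarf 1, 2 and 3, 3.34, 2.98 and 3.76 CPM in WT and 3.24, 2.38 and 2.81 CPM in large. The number of genes that passed was 74 without dwarf 1, 2130 without dwarf 3 and 4 to 7 without large 2, large 3, WT 2 or WT 3. Without dwarf 2, large 1 or WT 1 it was 0 by edgeR, with 2005, 1868 and 2347 at an unadjusted p under 0.05, and by DESeq2 with all libraries 1105 passed.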

How the results depend on the processing

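The count of called genes in dwarf against WT, 876 (455 up, 421 down), kept within 1.5 times under DESeq2 size factors, upper-quartile factors, no filter, a filter of 1 CPM in 3 libraries and the fit without the stretches. It was 207 (103 up, 104 down) with only the dwarf and WT libraries, 1857 (829, 1028) with DESeq2 and 2809 (1375, 1434) with limma voom. The calls that fell were 732 with upper-quartile factors and 220 with the stretches left out before normalization; these differ in construction by how far they centre dwarf against WT. Leaving out 1 library gave 103 to 2647 calls, 54 to 1288 up and 49 to 1359 down. Dwarf against large, 76 calls, gave 1105 with DESeq2 and 0 to 2130 without 1 library; large against WT, 390 calls, gave 1011 with DESeq2 and 3 to 810 without 1 library. The cause of these shifts was not tested.

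The replicate numbers did not pair the samples: same-numbered libraries correlated at -0.142, 0.089 and -0.035 between dwarf and WT, at -0.242, -0.065 and 0.451 between dwarf and large, and at 0.045, 0.081 and -0.067 between large and WT. With a replicate block the calls were 587 (295 up, 292 down) in dwarf against WT, 288 in large against WT and 0 in dwarf against large (edgeR, 2654 at an unadjusted p under 0.05).

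The log2 fold change of PPD3 turned negative with upper-quartile factors (-0.042), with no filter (-0.003), without dwarf 2 (-0.15) and without WT 3 (-0.048), and ranged from -0.15 to 0.14 without 1 library; none of its values passed the test. Of the named genes, 75 of 104 lost the call with only the 2 groups compared, 35 of 105 with the replicate block, 34 with the stretches left out, 9 with upper-quartile factors, 8 with no filter and 2 with limma voom, and none changed sign. Peroxidases that rose were 13 with limma voom, and the PPR and TPR-like genes 51 with the replicate block. Alternatives for PPD3, the PPR and TPR-like genes, the cold list and the peroxidases were added after seeing the data. Genes near the floor, such as FACT, ABCG20 and CYP86A1, rest on few WT counts.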

Other observations

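Several genes outside the lists, singled out after their values were seen and therefore without a claim for a group, separated the RNAi plants from WT cleanly. AT3G04650, an oxidoreductase gene that lies just past the border of the chromosome 3 stretch, was at 42.7, 54.4 and 60.8 CPM in dwarf 1, 2 and 3, 7.10, 5.47 and 6.17 CPM in WT and 44.3, 45.7 and 51.4 CPM in large (log2 fold change 3.07, SE 0.16, adjusted p = 0.000265), the smallest adjusted p of the 15057 genes. USPL1, a relative of seed proteins with a BURP domain, was at 4.42, 4.18 and 2.78 CPM in dwarf, 0.533, 0.468 and 0.512 CPM in WT and 4.04, 4.35 and 3.89 CPM in large (log2 fold change 2.903, SE 0.22, adjusted p = 0.00221). ABCB15, an ABC transporter, was at 4.17, 5.603 and 3.64 CPM against 0.947, 0.907 and 1.42 CPM (log2 fold change 2.03, SE 0.24, adjusted p = 0.00644). In these 3 genes the dwarf and large values overlapped and all 6 lay above WT.

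Other genes fell in dwarf. CIPK25, a kinase that acts with calcineurin B-like calcium sensors, was at 0.412, 0.53 and 0.154 CPM in dwarf, 3.64, 4.01 and 3.24 CPM in WT and 2.76, 1.998 and 1.34 CPM in large (log2 fold change -3.29, SE 0.41, adjusted p = 0.00665), with large between the other groups. AT5G54585, an uncharacterised gene, was at 0.659, 0.613 and 0.771 CPM in dwarf, 4.85, 3.95 and 5.06 CPM in WT and 4.55, 2.68 and 3.98 CPM in large (log2 fold change -2.76, SE 0.24, adjusted p = 0.00354). RCI2A, a small membrane protein of the cold response that is overlapped by another gene over 27.8% of its length, was at 83.04, 78.9 and 90.3 CPM in dwarf, 165, 141 and 141 CPM in WT and 141, 145 and 143 CPM in large (log2 fold change -0.83, SE 0.09, adjusted p = 0.00562). ABCG22, an ABC transporter needed for stomatal control of water loss, was at 18.9, 19.2 and 20.5 CPM in dwarf, 39.3, 41.4 and 33.8 CPM in WT and 30.1, 27.8 and 23.53 CPM in large (log2 fold change -0.97, SE 0.12, adjusted p = 0.00647). Of 12 remorins, proteins of plasma membrane domains, 4 fell (33.3%, beside 2.8% of all genes) and 0 rose by edgeR's test (0 also at an unadjusted p under 0.05 and with DESeq2), with a median of -0.46, among them AT5G23750 at 4.78, 3.76 and 4.75 CPM against 9.35, 8.51 and 8.14 CPM (log2 fold change -0.97, SE 0.14, adjusted p = 0.00771). The calls of these genes, of the remorins AT5G23750 alone, held without any 1 library.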
